A study of Homo sapiens with 34 samples.

Results

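Posterior primitive streak (PPS) cells were compared before and after a second day in paraxial mesoderm (PM) medium. The comparison took all libraries labelled PPS at 24 h (PPS-24h, 2 replicates) and PPS followed by PM at 48 h (PPS-PM, 2 replicates), which are 4 of the 34 RNA sequencing libraries of the series, across all genes listed. The series took wild-type ESI017, a widely used line of human embryonic stem cells, to 1 of 4 day 1 populations and then moved each population to media for definitive endoderm (DE(b)), PM or lateral mesoderm (LM), with 2 biological replicates per condition. On day 1, PPS cells received bFGF at 20 ng/ml, BMP4 at 40 ng/ml and CHIR, which activates Wnt signalling through inhibition of GSK3, at 6 µM, with no activin. On day 2, PM medium as the labels list it held bFGF at 20 ng/ml, A8301, an inhibitor of Nodal and activin receptors, at 1 µM and LDN, an inhibitor of BMP receptors, at 250 nM. Elsewhere the study's text describes the standard PM treatment of APS cells with CHIR in the medium. It also names Wnt activation together with BMP inhibition as the means of PM induction, and refers to strong Wnt activation in PM on day 2. Neither the labels nor the study's methods list CHIR for day 2, so whether it was present in these libraries is uncertain. Anterior primitive streak (APS) cells received on day 1 activin at 30 ng/ml, bFGF at 20 ng/ml and CHIR at 4 µM, with no BMP4, and then the same PM medium. PPS-LM cells had day 2 in BMP4 at 30 ng/ml, A8301 at 1 µM and IWP2, an inhibitor of Wnt secretion, at 4 µM, while PPS-DE(b) cells had activin at 100 ng/ml and LDN at 250 nM. The undifferentiated control was labelled 48 h. Every culture was of this single line, the libraries are of bulk cultures, and n = 2 for every condition.

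In the embryo, mesoderm leaves the primitive streak through an epithelial to mesenchymal transition and takes its identity from the signals it then meets. BMP favours lateral and extraembryonic fates, whereas FGF and Wnt in the absence of BMP favour presomitic mesoderm. Presomitic mesoderm expresses TBX6 and MSGN1, runs an oscillator built from Notch pathway genes such as HES7, LFNG and DLL3, and later segments into somites. HOX genes are activated in sequence along their clusters and mark position along the body axis.

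The PPS-24h libraries held 20249866 and 16611339 estimated counts and the PPS-PM libraries 23138266 and 21016687, within the range of 15522780 to 23439799 over the series. Mitochondrially encoded genes took 6.34% to 9.03% of the counts of the 4 libraries, and 0 of the 13 such genes tested were called (0 at an unadjusted p under 0.05, and 0 with DESeq2). PPS-PM replicate 2 had a count for 17165 genes, against 18406 to 19744 in the other three. The Euclidean distance on log2(CPM + 1) was 69.6 between the PPS-24h replicates, 67.5 between the PPS-PM replicates and 102 to 123 between libraries of the 2 conditions. CPM here are counts scaled to each library's own total, and every ± beside a log2 fold change is its standard error from the fit.

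Of 17895 genes tested, 3623 differed between PPS-PM and PPS-24h at an adjusted p under 0.05 (edgeR quasi-likelihood test, Benjamini-Hochberg adjustment). These were 1647 genes higher after PM, 9.20% of those tested, and 1976 genes lower, 11%, and 2323 of them changed by more than 2-fold. All counts of list members called in this comparison stand beside these shares. The median log2 fold change over all genes tested was -0.00553, with quartiles of -0.454 and 0.383. The number called was 2194 without PPS-PM replicate 2 and 2213 without PPS-24h replicate 2. PPS-24h was sampled at 24 h and PPS-PM at 48 h, so in this comparison the change of medium and the additional day cannot be told apart. In bulk libraries, fewer cells of a type and less RNA per cell cannot be told apart either.

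The markers of the PM label were present in both PPS-PM libraries, although most were also present at 24 h. The summed level of TBX6, MSGN1, CDX2, HES7, DLL3 and TBXT was 1625 and 1687 CPM in the PPS-24h libraries and 1622 and 2273 CPM in the PPS-PM libraries, against 4.86 and 4.36 CPM in the control. Within that sum TBX6, HES7 and DLL3 rose, TBXT fell, and MSGN1 and CDX2 were not called. Markers of other cell types differed in level after PM. The primitive streak markers TBXT, MIXL1, EOMES and EVX1 summed to 619 and 882 CPM, down from 1884 and 2378 CPM at 24 h, and the pluripotent markers POU5F1, NANOG, SOX2 and ZFP42 to 240.0 and 226 CPM, down from 895 and 926 CPM. The intermediate mesoderm markers PAX2, OSR1 and PAX8 summed to 75.3 and 70.7 CPM after PM against 42.0 and 47.0 CPM at 24 h. The neural markers SOX1, PAX6 and SOX2 summed to 1.3 and 0 CPM, the endothelial and blood markers PECAM1, CDH5, TAL1 and GATA1 to 0.0864 and 0 CPM, and the lateral mesoderm markers HAND1, FOXF1, ISL1 and HAND2 to 6.88 and 1.71 CPM, down from 166 and 131 CPM at 24 h. The amnion markers GATA3, TFAP2A, GABRP, VTCN1 and ISL1 went from 127 and 160 CPM at 24 h to 13 and 7.39 CPM. Of the definitive endoderm markers, SOX17, FOXA2 and HHEX were at 0 in both PPS-PM libraries, and CXCR4 was at 265 and 321 CPM. The somite markers MEOX1, TCF15 and PAX3 fell from a sum of 55.0 and 69.1 CPM to 13.5 and 6.91 CPM, nearly all of it PAX3.

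TBX6, the T-box factor that specifies presomitic mesoderm (chromosome 16, 30085793 to 30091924, minus strand, GRCh38), was at 40.8 and 26.5 CPM at 24 h and at 183 and 195 CPM after PM. The conditions did not overlap, and the rise was 2.46 ± 0.25 on the log2 scale (adjusted p = 3.82e-07). MSGN1, a bHLH factor of the same tissue, was at 92.1 and 64.1 CPM at 24 h and at 96.8 and 80.7 CPM after PM. Its libraries overlapped, and the log2 fold change of 0.15 ± 0.22 was not called (adjusted p = 0.703). CDX2, a caudal homeobox factor of the posterior body, was at 362 and 410 CPM before and 171 and 190 CPM after PM. Both PM libraries lay below both day 1 libraries, but the log2 fold change of -1.12 ± 0.41 did not pass the threshold (adjusted p = 0.0567). It passed without the filter on low counts (adjusted p = 9.59e-08) and with a replicate block in the fit (0.019). It also passed with only the compared libraries fitted (0.0172) and with identifiers summed (0.0411). It did not pass with RLE factors (0.0542), DESeq2 (0.132) or any 1 of the 4 libraries left out (log2 fold change -1.22 to -1.04). Without the filter the log2 fold change of CDX2 was also -1.12, so that smaller p reflects the setting of the fit and not a larger change.

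Over the list of presomitic and posterior transcription factors, 4 of the 16 tested members rose, 4 fell and 8 were not called, with a median log2 fold change of -0.37. For genes at or under a floor of 3 counts in both libraries of one condition the fitted value depends on a prior count, and with the 2 such members here set to the bound that the floor gives the median was -0.075. Besides TBX6, the members that rose were HES7, CDX4 and GBX2. CDX4, another caudal factor, went from 65.5 and 32.2 CPM to 181 and 125 CPM (log2 fold change 1.61 ± 0.49, adjusted p = 0.0222). Its call was lost without PPS-PM replicate 1 (1.33) and without PPS-24h replicate 2 (1.18). GBX2 had a log2 fold change of 1.36 (adjusted p = 0.0479), and its call was lost without PPS-PM replicate 2 (0.92) or either PPS-24h replicate (1.1 and 1.66). The members that fell were MESP1, MESP2, NKX1-2 and TBXT. NKX1-2, a homeobox gene of neuromesodermal progenitors, fell from 184 and 268 CPM to 22.6 and 11.4 CPM (log2 fold change -3.76 ± 0.60, adjusted p = 9.69e-05). EVX1, SP5, CDX1 and SP8 were not called and lay between 16 and 243 CPM in the PPS-PM libraries. Without PPS-24h replicate 2 the number called higher was 2.

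Notch and segmentation clock genes changed in both directions. Of 19 tested members, 5 rose, 6 fell and 8 were not called, with a median of -0.06 (0 with 3 members at that bound). Among the ligands, DLL3 rose the most. It was at 72.4 and 46.3 CPM at 24 h and at 633 and 1123 CPM after PM, a log2 fold change of 3.86 ± 0.37 (adjusted p = 1.77e-07). DLL1, the activating ligand of the presomitic mesoderm, is listed under 2 identifiers, and their sum rose from 88.5 and 71.9 CPM to 242 and 240 CPM (log2 fold change 1.55 ± 0.36, adjusted p = 0.00255 with identifiers of a symbol summed). JAG1, another ligand, stayed between 116 and 132 CPM in all 4 libraries and was not called (adjusted p = 0.86). Of the receptors, NOTCH1 rose from 124 and 187 CPM to 489 and 611 CPM (log2 fold change 1.8 ± 0.23), and NOTCH3 had a log2 fold change of -1.16 ± 0.29. The NOTCH3 call was lost without PPS-PM replicate 1 (-1.10) and without PPS-24h replicate 2 (-0.50).

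Other clock genes rose as well. HES7, the transcriptional repressor at the core of the oscillator (chromosome 17, 8120592 to 8124106, minus strand), was at 17.5 and 15.0 CPM before PM and at 137 and 127 CPM after it, without overlap (log2 fold change 2.99 ± 0.36, adjusted p = 3.48e-06). LFNG, a glycosyltransferase that modifies Notch, rose from 27.7 and 16.1 CPM to 93.0 and 127 CPM (log2 fold change 2.30 ± 0.33, adjusted p = 2.79e-05). Other Hairy and Hey genes moved the opposite way. HES1 was at 31.6 and 35.1 CPM at 24 h and at 2.35 and 0.714 CPM after PM (log2 fold change -4.47 ± 0.64, adjusted p = 2.76e-05). HEY1 had a log2 fold change of -4.22 and HEY2 of -1.57, and both calls were lost without PPS-PM replicate 2 (-3.28 and -1.35), whereas HEYL had a log2 fold change of 1.86, a call that was lost without PPS-24h replicate 1 (1.53). MESP2, which marks the segment about to form, was at 1.48 and 0.722 CPM at 24 h and at 0 in both PPS-PM libraries, at least 8.10-fold lower against a floor of 3 counts per library. DLK1, a ligand-like protein, was called lower at under 1 CPM throughout, and its call was also lost without PPS-PM replicate 2, which left 3 members called lower. A fitted fold change that rests on a few counts in a condition depends on a prior count and is no bound.

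**Figure D1:**
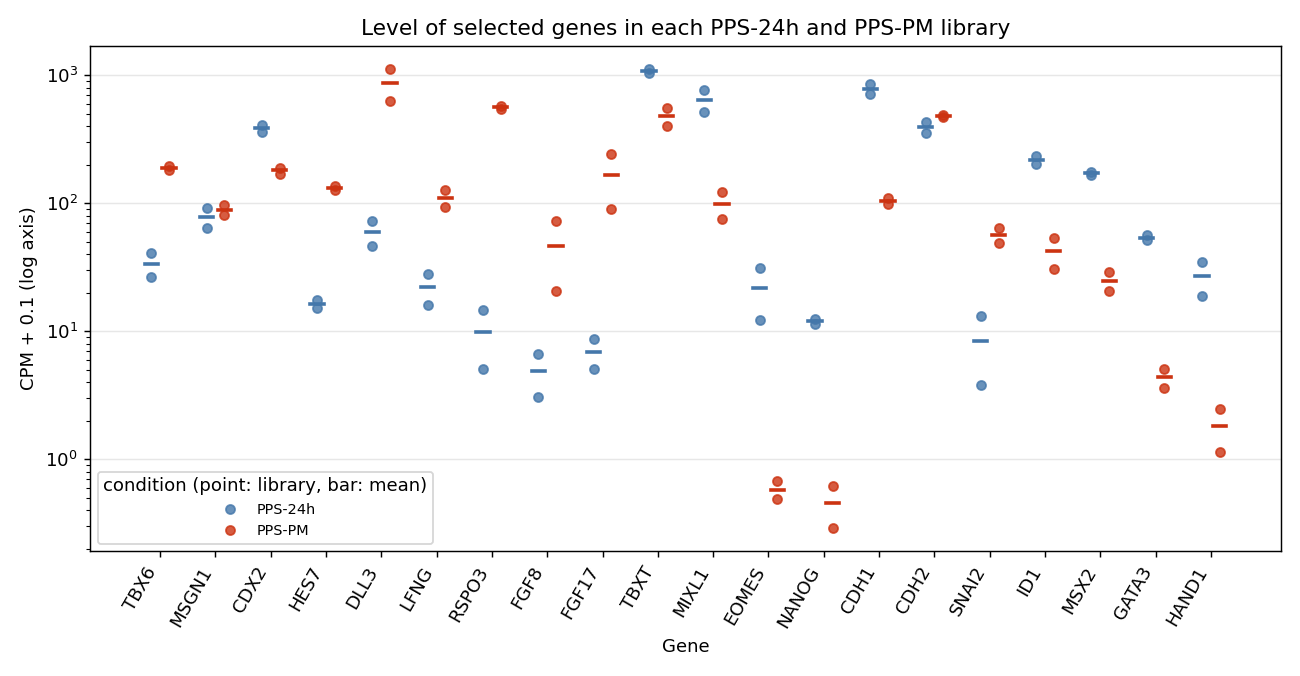
Level of 20 genes in each library, as CPM + 0.1 on a log axis. Points are the 2 libraries of PPS-24h and of PPS-PM and bars are their means. TBX6, HES7, DLL3, LFNG and RSPO3 sit higher after PM, MSGN1 overlaps between the conditions, and EOMES, NANOG, GATA3 and HAND1 sit lower.

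Genes of the primitive streak were mostly lower after PM, with 7 of 12 tested members called lower and 3 called higher, and a median of -1.20. EOMES, a T-box factor required for endoderm and early mesoderm, went from 12.2 and 31.0 CPM to 0.389 and 0.571 CPM (log2 fold change -5.51 ± 0.84, adjusted p = 5.51e-05). MESP1, an early mesoderm factor, went from 99.7 and 69.8 CPM to 3.94 and 1.81 CPM (-4.91 ± 0.74). MIXL1, a homeobox factor of the streak, went from 521 and 763 CPM to 75.9 and 122 CPM (-2.72 ± 0.42). TBXT is shared by the streak and its posterior derivatives. It was at 1041 and 1125 CPM at 24 h and at 402 and 557 CPM after PM (log2 fold change -1.20 ± 0.39, adjusted p = 0.0333), but this call was lost when any 1 of the 4 libraries was left out (-1.48 to -0.98, adjusted p from 0.0635 to 0.196) and with DESeq2 (adjusted p = 0.0501). The members that rose were APLNR, FGF8 and WNT8A. APLNR, the apelin receptor, rose from 175 and 86.3 CPM to 721 and 643 CPM (log2 fold change 2.35 ± 0.39). FGF8 and WNT8A lost their calls without single libraries, WNT8A without PPS-PM replicate 1 (2.10) and PPS-24h replicate 2 (2.22) and FGF8 without PPS-PM replicate 2 (2.07) and PPS-24h replicate 1 (2.81). The number of streak genes called lower was 4 without PPS-24h replicate 2.

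All 17 tested BMP target genes were lower after PM, with a median log2 fold change of -2.81, and in every one both PPS-PM libraries lay below both PPS-24h libraries. The list has 18 members, and GREM1, listed under 2 identifiers, was not counted. Its sum did not fall, at 10.7 and 3.91 CPM before and 6.54 and 8.59 CPM after PM (log2 fold change 0.01 ± 0.52). The share of all tested genes called lower was 11%. The list holds direct targets that restrain or carry the response. ID1, an inhibitor of bHLH factors, was at 236 and 202 CPM at 24 h and at 53.6 and 30.7 CPM after PM (log2 fold change -2.41 ± 0.48, adjusted p = 0.000894). ID2 went from 160 and 127 CPM to 24.3 and 17.5 CPM (-2.81 ± 0.27, adjusted p = 2.29e-07). SMAD7, an inhibitory SMAD, went from 88.0 and 106 CPM to 7.71 and 8.61 CPM (-3.60 ± 0.22, adjusted p = 5.85e-10). Of the feedback antagonists, NOG, which binds BMP outside the cell, went from 36.3 and 45.2 CPM to 0.824 and 0.809 CPM (-5.66 ± 0.44, adjusted p = 1.43e-08), and BAMBI, a pseudoreceptor, from 329 and 246 CPM to 35.9 and 46.8 CPM (-2.82 ± 0.29, adjusted p = 3.72e-07). The homeobox factors MSX1 and MSX2 had log2 fold changes of -2.84 and -2.83. Leaving out PPS-PM replicate 2 left 14 of the 17 calls, losing ID3 (-1.36), ID4 (-1.16) and CHRDL1 (-1.10), and CHRDL1 was also lost without PPS-PM replicate 1 (-1.02) and without PPS-24h replicate 2 (-0.99). BMP4 itself was at 112 and 58.1 CPM before and at 75.0 and 113 CPM after PM, which overlapped (adjusted p = 0.876).

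Nodal and activin targets were also lower, although PPS cells had received no activin. Of 14 tested members, 9 fell, 0 rose and 5 were not called, with a median of -3.69 (-2.75 with 3 members set to that bound). Among the members not called, CER1, LEFTY1 and LEFTY2 were at most at 0.361 CPM in any of the 4 libraries, while FOXH1 was at 174 and 238 CPM before and 73.6 and 163 CPM after PM (adjusted p = 0.108). PMEPA1, a feedback inhibitor of SMAD2 and SMAD3, was at 42.3 and 49.9 CPM at 24 h and at 0.821 and 0.572 CPM after PM, with a log2 fold change of -6.06 ± 0.27 (adjusted p = 5.78e-12). NODAL itself went from 24.7 and 45.9 CPM to 0.475 and 0.952 CPM (-5.66 ± 0.49, adjusted p = 4.61e-08), and its co-receptor TDGF1 from 99.3 and 75.1 CPM to 3.37 and 6.67 CPM (-4.15 ± 0.45). SKIL, a SMAD corepressor, went from 265 and 194 CPM to 37.4 and 31.3 CPM (-2.77 ± 0.20). Only GSC, which was at or under 0.602 CPM throughout, lost its call without a library: PPS-PM replicate 2 (-1.21), PPS-24h replicate 1 (-2.38) or PPS-24h replicate 2 (-1.79).

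Promoter sequence is shown for 2 genes that fell, BAMBI among the BMP targets and HES1 among the Notch genes, because each carries repeated copies of a motif of its pathway. The windows run from 250 bases before to 50 bases after the start site and come from RefSeq (GRCh38.p14), at chr10:28677271-28677570 and chr3:194135898-194136197, both on the plus strand, with capitals marking GGCGCC, a GC-rich SMAD1/5 motif, in BAMBI and TGGGAA, the core of the RBPJ motif, in HES1.
BAMBI: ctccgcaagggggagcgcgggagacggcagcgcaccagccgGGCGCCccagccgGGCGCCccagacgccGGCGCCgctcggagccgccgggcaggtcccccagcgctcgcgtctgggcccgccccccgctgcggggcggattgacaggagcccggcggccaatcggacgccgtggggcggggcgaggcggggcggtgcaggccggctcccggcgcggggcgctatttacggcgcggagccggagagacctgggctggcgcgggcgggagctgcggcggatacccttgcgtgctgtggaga
HES1: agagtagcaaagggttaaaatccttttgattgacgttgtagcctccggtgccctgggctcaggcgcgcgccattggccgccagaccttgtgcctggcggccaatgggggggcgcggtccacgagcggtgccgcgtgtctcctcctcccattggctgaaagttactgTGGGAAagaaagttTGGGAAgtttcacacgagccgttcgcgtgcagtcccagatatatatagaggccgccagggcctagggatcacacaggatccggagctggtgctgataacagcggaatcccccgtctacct
GGCGCC is a palindrome and starts 209, 196 and 181 bases before the BAMBI start site, and TGGGAA starts 84 and 70 bases before that of HES1, both on the strand of the gene. Searched on both strands, GGCGCC was in 19.2% and TGGGAA in 24.0% of all 35116 promoter windows, and the E-box CACGTG in 7.26%. Some genes have several windows, and by gene symbol the shares were 22.0% for GGCGCC and 28.1% for TGGGAA, of 27305 symbols. The list counts are by symbol as well. Of the 14 tested BMP targets with a window, 3 held GGCGCC (BAMBI, GATA2 and GATA3). Of the 15 tested Notch and clock genes with a window, 6 held TGGGAA. Such a match is a description of the window, and no factor binding was measured.

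Wnt and FGF genes split, with the presence of CHIR on day 2 uncertain as stated above. Of 20 tested Wnt targets and ligands, 6 fell, 3 rose and 11 were not called, with a median of -0.53. Several feedback inhibitors fell. AXIN2 was at 549 and 795 CPM at 24 h and at 136 and 205 CPM after PM (log2 fold change -2.0 ± 0.32, adjusted p = 0.000114), and RNF43, a ubiquitin ligase that removes Wnt receptors, went from 88.8 and 158 CPM to 22.4 and 25.8 CPM (-2.38 ± 0.44). RSPO3, a secreted enhancer of Wnt signalling, showed the opposite. It was at 14.6 and 5.00 CPM before and at 577 and 547 CPM after PM, with a log2 fold change of 5.80 ± 0.51 (adjusted p = 8.53e-08). The ligands WNT3A, WNT5A and WNT5B were not called and lay between 46.8 and 1133 CPM in all 4 libraries. The number of Wnt genes called higher was 1 without PPS-24h replicate 2.

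Among 19 tested FGF and ERK response genes 9 rose, 4 fell and 6 were not called, with a median of 0.52. FGF17, a ligand of the FGF8 family, was at 4.96 and 8.63 CPM before PM and at 90.4 and 243 CPM after it (log2 fold change 4.61 ± 0.73, adjusted p = 8.86e-05). FGF8 went from 2.96 and 6.57 CPM to 20.6 and 72.8 CPM (3.28 ± 0.78, adjusted p = 0.00388). The PPS-PM replicates of both ligands differed by more than 2-fold, and the FGF8 call was lost without PPS-PM replicate 2 (2.07) or PPS-24h replicate 1 (2.81). FGF4 and FGF18 changed the other way, with log2 fold changes of -1.04 ± 0.32 and -3.78 ± 0.62, and the FGF4 call was lost without PPS-PM replicate 1 (-0.72) or PPS-24h replicate 2 (-0.86). SPRY1, an ERK pathway inhibitor, rose from 4.35 and 1.81 CPM to 33.1 and 19.9 CPM (3.06 ± 0.55). The number of members called higher was 4 without PPS-PM replicate 2 and 5 without PPS-24h replicate 2, and the number called lower was 2 without either PPS-PM replicate 1 or PPS-24h replicate 2.

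Several lateral mesoderm and amnion genes that PPS cells expressed on day 1 fell. Of 16 tested lateral and cardiac genes 7 fell, 0 rose and 9 were not called (median -2.08, or -1.96 with 1 gene at its bound). Of 19 tested amnion and surface ectoderm genes 10 fell, 0 rose and 9 were not called (median -1.61). Some genes are on both lists and on the BMP target list. HAND2, GABRP and VTCN1 were not called and were at or under 0.988 CPM on day 1. ISL1, a LIM homeobox factor of both tissues, was at 36.8 and 30.5 CPM at 24 h and at 0.390 and 0 CPM after PM (log2 fold change -7.37 ± 0.86, adjusted p = 2.25e-06). FOXF1, a splanchnic mesoderm factor, went from 93.4 and 81.5 CPM to 3.46 and 0.285 CPM (-5.56 ± 0.79), and HAND1, a bHLH factor of lateral and extraembryonic mesoderm, from 35.0 and 18.8 CPM to 2.38 and 1.05 CPM (-3.99 ± 0.60). GATA3 went from 51.5 and 56.5 CPM to 4.98 and 3.53 CPM (-3.70 ± 0.42), TFAP2A from 37.4 and 72.5 CPM to 7.14 and 3.76 CPM (-3.36 ± 0.44), and GATA6 from 65.1 and 44.8 CPM to 16.6 and 14.2 CPM (-1.87 ± 0.31). The libraries of the 2 conditions overlapped in none of these 6 genes. Among the called amnion genes, HEY1 lost its call without PPS-PM replicate 2 (-3.28). KRT8 lost its call without PPS-PM replicate 1 (-1.06), PPS-PM replicate 2 (-0.81) or PPS-24h replicate 1 (-0.66). WNT6 lost its call when any 1 of the 4 libraries was left out (-2.62 to -1.56). Lateral genes called higher numbered 1 without PPS-PM replicate 1 and 2 without PPS-24h replicate 1.

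Pluripotency genes continued downward from their day 1 level. Of 16 tested members 11 fell, 0 rose and 5 were not called (median -1.16). NANOG was at 12.4 and 11.4 CPM at 24 h and at 0.519 and 0.190 CPM after PM (-5.05 ± 0.67, adjusted p = 1.51e-05). POU5F1 is listed under 4 identifiers, whose sum fell from 727 and 815 CPM to 145 and 151 CPM (-2.42 ± 0.19, adjusted p = 5.88e-09 with identifiers of a symbol summed). SOX2 was already at 0.889 and 0.361 CPM on day 1 and was at 1.26 and 0 CPM after PM (adjusted p = 1). SALL4, a zinc finger factor, went from 739 and 661 CPM to 352 and 346 CPM (-1.03 ± 0.13, adjusted p = 7.12e-06). The number called lower was 7 without PPS-PM replicate 2.

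Genes of other lineages were for the most part low or not called. Of 13 tested definitive endoderm genes 5 fell and 1 rose. The one that rose was CXCR4, a chemokine receptor that presomitic mesoderm also expresses, from 59.8 and 19.5 CPM to 265 and 321 CPM (log2 fold change 2.85 ± 0.55, adjusted p = 0.000626). SOX17 was at 0.247 and 0.602 CPM at 24 h and FOXA2 at 0.0989 and 0.361 CPM, and both were at 0 after PM (adjusted p = 0.448 and 0.358). Of 13 blood and endothelial genes 2 fell, and of 14 neural and neuromesodermal genes 2 fell and 12 were not called. Both counts are near the 11% of all tested genes called lower. Without PPS-PM replicate 2 the endoderm counts were 3 lower and 2 higher, without PPS-PM replicate 1 or PPS-24h replicate 2 1 blood gene was lower, and without PPS-24h replicate 1 1 neural gene was higher. Among 9 intermediate mesoderm genes, OSR1, a zinc finger factor, rose from 10.7 and 5.00 CPM to 59.8 and 61.6 CPM (2.91 ± 0.58, adjusted p = 0.00109). PAX2, a paired box factor of the kidney lineage, went from 30.3 and 39.2 CPM to 14.2 and 7.71 CPM (-1.70 ± 0.56, adjusted p = 0.0363), a call lost when any 1 of the 4 libraries was left out (-2.19 to -1.34).

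Early somite genes changed in both directions. Of 15 tested members 4 rose, 2 fell and 9 were not called (median 0.18), and MEOX1, MEOX2, UNCX, PAX1 and MYF5 had at most 0.130 CPM in any of the 4 libraries. Over all genes tested, 9.20% were called higher and 11% lower. FOXC1, a forkhead factor of presomitic and somitic mesoderm, had the largest called rise of the list. It was at 1.98 and 1.20 CPM at 24 h and at 99.4 and 134 CPM after PM (log2 fold change 6.15 ± 0.41, adjusted p = 2.25e-09). ALDH1A2, which makes retinoic acid, rose from 9.70 and 6.56 CPM to 41.7 and 55.1 CPM (2.54 ± 0.47, adjusted p = 0.000405). PAX3 fell from 53.8 and 68.5 CPM to 12.4 and 6.57 CPM (-2.72 ± 0.61, adjusted p = 0.00251), a call that was lost without PPS-PM replicate 2 (-2.35, adjusted p = 0.0528). FOXD1, at most at 4.88 CPM in any of the 4 libraries, was called higher, and its call was lost without PPS-PM replicate 1 (3.15), PPS-PM replicate 2 (3.19) or PPS-24h replicate 2 (2.23). The call of the BMP and activin antagonist FST, from 452 and 429 CPM to 27.3 and 184 CPM, was lost without PPS-PM replicate 1 (-1.28), PPS-24h replicate 1 (-2.04) or PPS-24h replicate 2 (-2.13).

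**Figure D2:**
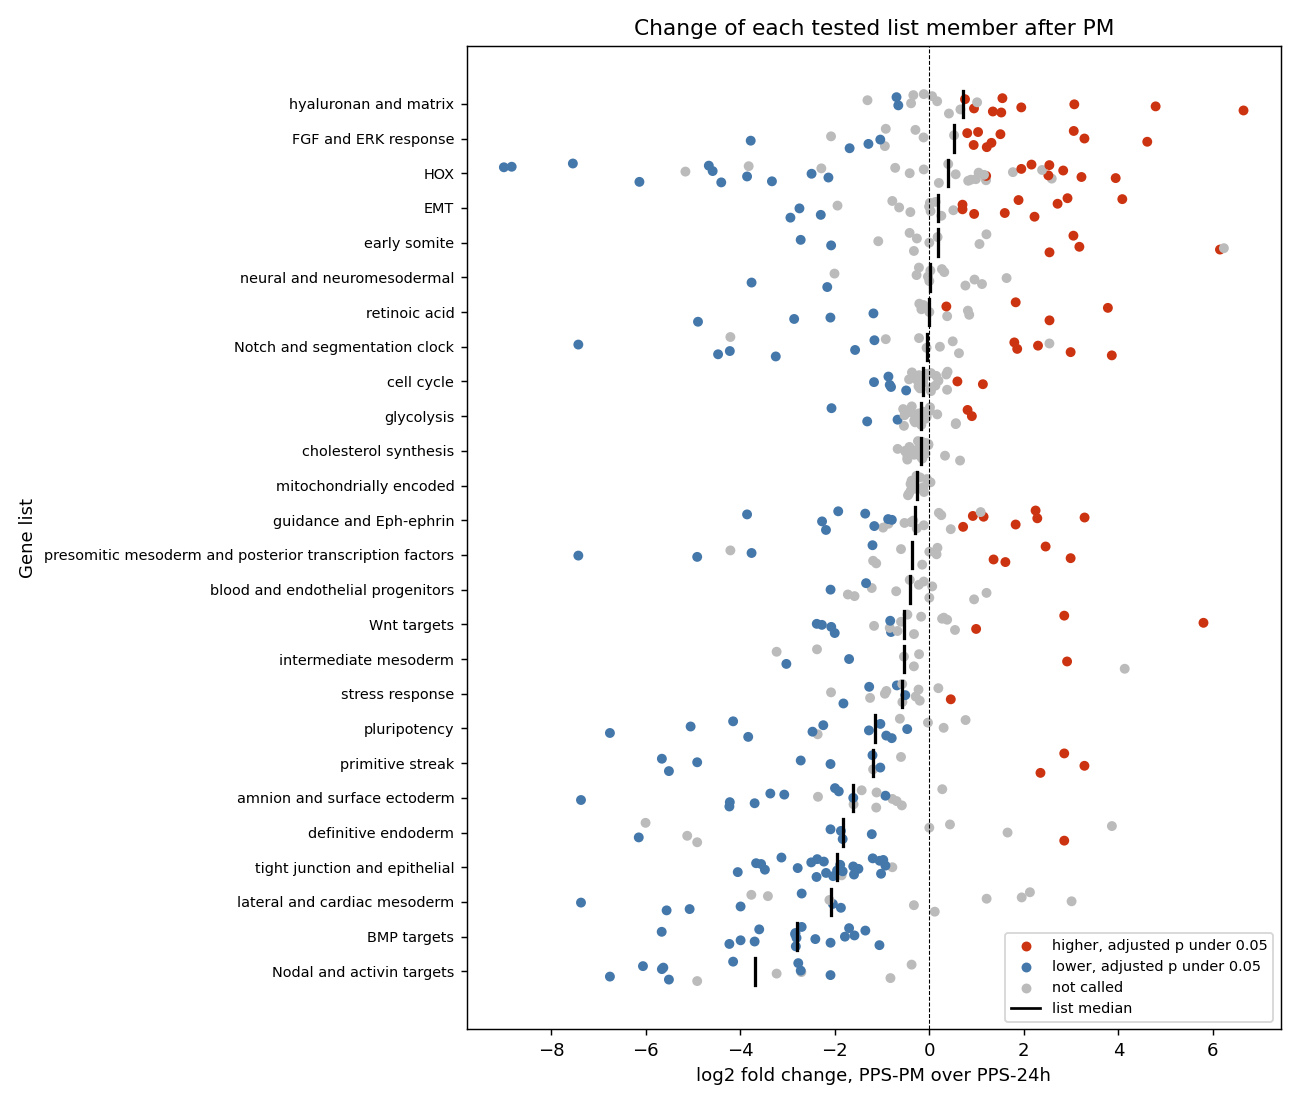
Log2 fold change of PPS-PM over PPS-24h for every tested member of 26 gene lists, ordered by list median. Points are genes, coloured by call, and black bars are list medians. The BMP target, Nodal and activin, and tight junction lists have medians of -2.81, -3.69 and -1.95, while the cholesterol synthesis and mitochondrially encoded lists hold no called gene.

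HOX genes differed by their place in the clusters. Over the 37 tested genes 8 rose, 11 fell and 18 were not called. The following division was made after the values were seen. In paralogue groups 1 to 8, at the 3′ and middle part of the clusters, 8 of 23 tested genes rose and 1, HOXB6, fell, with a median of 1.16. In groups 9 to 13, at the 5′ end, 10 of 14 tested genes fell and 0 rose, with a median of -4.49 (-3.84 with 6 genes set to the bound of the floor). HOXB1 was at 26.5 and 16.7 CPM before PM and at 164 and 247 CPM after it (log2 fold change 3.22 ± 0.46, adjusted p = 3.53e-05), and HOXB3 went from 70.4 and 73.3 CPM to 489 and 353 CPM (2.52 ± 0.43, adjusted p = 0.000199). HOXA7 rose from 12 and 8.08 CPM to 160 and 156 CPM (3.94 ± 0.88, adjusted p = 0.00342).

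Of the 14 5′ genes, HOXB9, HOXC9, HOXC10 and HOXD12 were not called. HOXA10 was at 16.2 and 14.4 CPM at 24 h and at 1.08 and 0.381 CPM after PM (log2 fold change -4.40 ± 0.81, adjusted p = 0.00103), and HOXA13 went from 8.14 and 5.42 CPM to 0.519 and 0.857 CPM (-3.33 ± 0.64). HOXD10, at 2.65 and 3.99 CPM on day 1, and HOXD11, at 2.66 and 3.23 CPM, were at 0 in both PPS-PM libraries, at least 24.4-fold and 21.6-fold lower. HOXB9 was the only gene of groups 9 to 13 with a positive estimate, from 160 and 133 CPM to 484 and 535 CPM. It was not called (1.77 ± 0.63, adjusted p = 0.0535), nor with RLE factors (0.056), DESeq2 (0.0779) or any 1 library left out (1.635 to 1.907). It was called without the filter on low counts (adjusted p = 3.18e-18) and with a replicate block (0.0188). It was also called with only the compared libraries (0.00507) and with identifiers summed (0.0415). Without the filter its log2 fold change was also 1.77, so that smaller p reflects the setting of the fit and not a larger change. HOXB6, from 223 and 170 CPM to 40.7 and 30.8 CPM (-2.49 ± 0.40, adjusted p = 0.000202), was the single gene called lower among the first 8 groups. Of the rises, only HOXB1 and HOXB3 were called with every single library left out. The number of HOX genes called higher was 14 without the filter on low counts and 13 with only the compared libraries, and 3 with a tested fold of at least 2. It fell to 3 without PPS-PM replicate 1, 5 without PPS-PM replicate 2, 4 without PPS-24h replicate 1 and 2 without PPS-24h replicate 2, at which HOXA7 had an adjusted p of 0.051. HOXA9, HOXC13 and HOXD13 lost their calls without PPS-PM replicate 2 (-1.66, -3.70 and -3.76), as did HOXA9 without either PPS-24h replicate (-2.13 and -2.14).

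**Figure D3:**
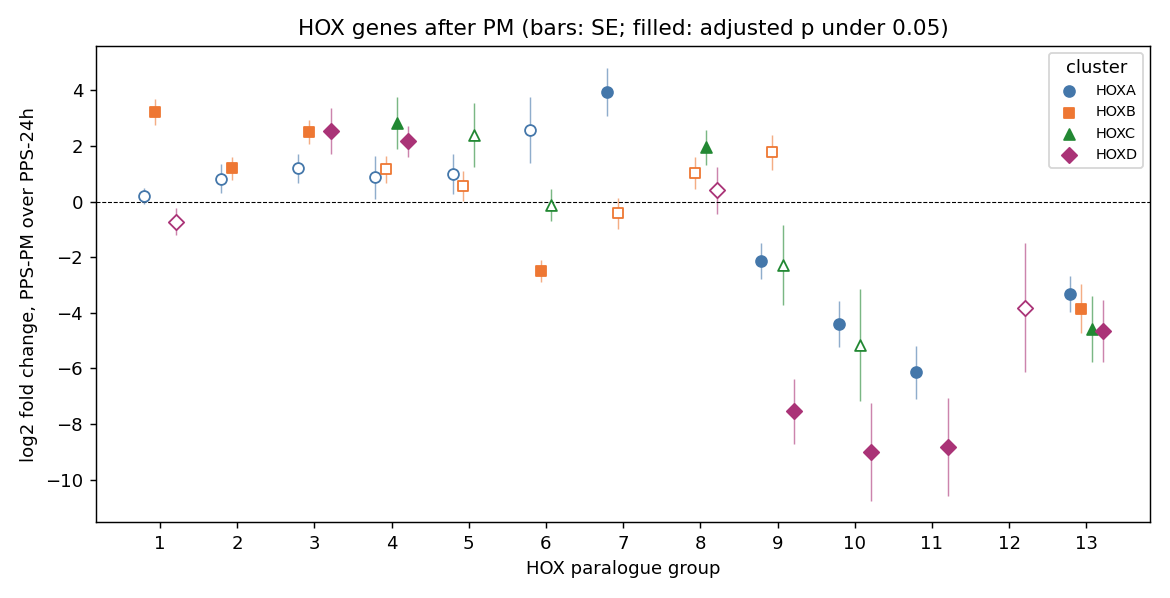
Log2 fold change of PPS-PM over PPS-24h for the 37 tested HOX genes by paralogue group, with the 4 clusters as colours and symbols. Bars are standard errors and filled symbols have an adjusted p under 0.05. Estimates of genes at or under 3 counts after PM depend on a prior count. Estimates in groups 1 to 8 lie between -2.49 and 3.94, and those in groups 9 to 13 between -9.00 and 1.77.

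Epithelial genes fell. Of 25 tested tight junction and epithelial genes 23 fell and 0 rose, with a median of -1.95. CDH1, which encodes E-CAD, was at 717 and 861 CPM at 24 h and at 99.5 and 110 CPM after PM, without overlap (log2 fold change -2.94 ± 0.28, adjusted p = 1.47e-07). CDH3 (P-cadherin) went from 215 and 277 CPM to 44.6 and 57.5 CPM (-2.30 ± 0.20) and PCDH1, a protocadherin, from 56.5 and 67.9 CPM to 13.3 and 5.62 CPM (-2.75 ± 0.54). The splicing regulator ESRP2 (-3.48 ± 0.43), the epithelial transcription factor GRHL2 (-2.78 ± 0.41) and the junction adaptor CGN (-2.39 ± 0.22) fell with them. The summed identifiers of OCLN (-1.72 ± 0.27) and TJP1 (-0.57 ± 0.16) were lower as well. Of the list, CLDN4 lost its call without PPS-PM replicate 2 (-1.47), and KRT8 lost its call as given above. OVOL2 and TJP3 lost their calls without PPS-PM replicate 2 (-1.98 and -2.18) or PPS-24h replicate 2 (-2.32 and -2.24). CDH2, which encodes N-CAD, was at 433 and 358 CPM before and at 487 and 475 CPM after PM and was not called (0.25 ± 0.15, adjusted p = 0.258).

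Of 22 tested EMT genes 9 rose, 3 fell and 10 were not called, the 3 being CDH1, CDH3 and PCDH1. Transcription factors of the transition were among those that rose. ZEB1 rose from 1.39 and 0.903 CPM to 20.4 and 19.7 CPM (log2 fold change 4.08 ± 0.31, adjusted p = 1.11e-08), ZEB2 from 15.3 and 8.26 CPM to 86.4 and 97.2 CPM (2.92 ± 0.40), and SNAI2 from 13 and 3.68 CPM to 64.2 and 49.0 CPM (2.71 ± 0.48, adjusted p = 0.000297). SNAI1 was at 64.9 and 40.3 CPM at 24 h and at 77.0 and 97.5 CPM after PM (0.70 ± 0.23, adjusted p = 0.0369), and its call was lost without PPS-PM replicate 2 (0.50) or PPS-24h replicate 2 (0.39). VIM, the intermediate filament protein vimentin, rose from 383 and 232 CPM to 1111 and 1209 CPM (1.89 ± 0.33). Of the others, FN1 lost its call without PPS-PM replicate 1 (0.49) or PPS-24h replicate 2 (0.58). MMP2 lost its call without PPS-PM replicate 2 (0.56), PPS-24h replicate 1 (0.62) or PPS-24h replicate 2 (0.78).

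Of 20 tested hyaluronan and matrix genes 9 rose, 2 fell and 9 were not called, with a median of 0.71. COL3A1 was at 3.41 and 1.69 CPM at 24 h and at 272 and 257 CPM after PM (log2 fold change 6.65 ± 0.76, adjusted p = 3.29e-06), COL5A2 rose from 44.4 and 25.9 CPM to 959 and 1024 CPM (4.79 ± 0.34), and FBN1, fibrillin 1, from 12.3 and 18 CPM to 120 and 138 CPM (3.07 ± 0.29). HAS2, the hyaluronan synthase of mesoderm, overlapped between the conditions at 166 to 220 CPM (adjusted p = 0.778). Among the rises, LAMA1 lost its call without PPS-PM replicate 2 (0.625) or PPS-24h replicate 1 (0.56). The COL4A2 call was lost without PPS-24h replicate 1 (0.68). The 2 members that fell were LAMC1 and COL6A1, and neither was called without PPS-PM replicate 1 (-0.52 and -0.66) or PPS-24h replicate 2 (-0.56 and -0.25), nor was COL6A1 without PPS-PM replicate 2 (-0.67). Guidance and Eph-ephrin genes split, with 7 of 26 higher and 8 lower. PLXNA2, a semaphorin receptor, rose from 75.6 and 44.2 CPM to 553 and 640 CPM (3.28 ± 0.35) and the Eph receptor EPHA4 from 150 and 106 CPM to 415 and 512 CPM (1.83 ± 0.32), while the ligand EFNA1 fell from 46.4 and 43.2 CPM to 10.6 and 9.52 CPM (-2.19 ± 0.32). Without PPS-PM replicate 2 these counts were 4 higher and 5 lower.

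Retinoic acid genes also split, with 4 of 15 tested members higher and 4 lower (median 0). Besides ALDH1A2, STRA6, a retinol transporter, rose from 58.8 and 64.1 CPM to 176 and 268 CPM (1.83 ± 0.33), whereas CRABP1, which binds retinoic acid in the cytoplasm, fell from 20.8 and 18 CPM to 4.68 and 4.63 CPM (-2.09 ± 0.39). CYP26A1, which degrades retinoic acid, was at or under 0.779 CPM in the 4 libraries. The number of retinoic acid genes called lower was 1 without PPS-PM replicate 2 and 2 without PPS-24h replicate 1, and the number called higher was 2 without PPS-24h replicate 2. Counts in lists of general cell function stand beside the 9.20% of all tested genes called higher and the 11% called lower. Of 23 glycolysis genes 3 fell and 2 rose, the largest change being that of the glucose transporter SLC2A3, from 2711 and 2312 CPM to 712 and 512 CPM (-2.07 ± 0.28, adjusted p = 1.5e-05). Of 29 cell cycle genes 5 fell and 2 rose, of 15 stress response genes 4 fell and 1 rose, and of 21 cholesterol synthesis genes 0 were called by edgeR or by DESeq2 (4 at an unadjusted p under 0.05). The 2 glycolysis rises were both lost without PPS-PM replicate 2 and without PPS-24h replicate 2, the cell cycle counts were 3 lower and 1 higher without PPS-PM replicate 2 and 0 higher without PPS-24h replicate 2, and the stress counts were 2 lower and 0 higher without PPS-PM replicate 1, PPS-PM replicate 2 or PPS-24h replicate 1.

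By size alone, the largest rises among genes over 10 CPM with no overlap between conditions included SLIT1, a secreted guidance ligand, from 2.03 and 2.11 CPM to 349 and 347 CPM (log2 fold change 7.36 ± 0.52, adjusted p = 3.82e-09), the lipid transporter ABCG1, from 0.395 and 0 CPM to 74.6 and 40.8 CPM (8.0 ± 0.94), and NID2, a basement membrane nidogen, from 3.18 and 3.08 CPM to 282 and 490 CPM (6.92 ± 0.53). IGFBP5, which binds insulin-like growth factors, rose to 76.0 and 313 CPM from 1.33 and 1.32 CPM (7.17 ± 1.29), and its PPS-PM replicates differed by more than 4-fold. KRT71, a hair keratin, went from 0.148 and 0 CPM to 58.2 and 111 CPM and was called by edgeR (adjusted p = 0.000565) but not by DESeq2 (adjusted p = 0.451), and CYTIP went from 0.0989 and 0.241 CPM to 13.4 and 25.7 CPM. COL3A1, FOXC1 and AC139491.6, at 0.148 and 0.120 CPM before and 19.1 and 9.57 CPM after PM, were in this group. RGL2 was also among them, but it is listed under 3 identifiers whose sum did not differ (46.8 and 58.5 CPM against 58.0 and 73.5 CPM, adjusted p = 0.238).

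The largest falls by the same rule, ranked by fitted values, included CYP24A1, which degrades vitamin D, at 19.4 and 14.2 CPM at 24 h and at 0 in both PPS-PM libraries, at least 123-fold lower against the floor. SAMD11 went from 22.1 and 30.8 CPM to 0.0864 and 0 CPM, and GABRA4, a subunit of a GABA receptor, from 17.9 and 19.6 CPM to 0.259 and 0 CPM. WSCD2 (-6.60 ± 0.68), the glutamate receptor subunit GRIK3 (-6.40 ± 0.54) and the GDNF co-receptor GFRA1 (-6.22 ± 0.76) fell from 11.9 CPM or more to at most 0.346 CPM. ISL1 and PMEPA1, described above, were in this group. POU5F1 under 1 of 4 identifiers and CDK7 under 1 of 2 were also among the falls, and the size of these single-identifier values is uncertain. With identifiers summed, both genes were still called lower, POU5F1 as given above. The summed CDK7 level was 48.1 and 41.1 CPM before and 29.7 and 24.9 CPM after PM (-0.74 ± 0.15, adjusted p = 0.000644 in the edgeR fit on summed identifiers).

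The same medium was also compared between starting populations. The difference between the PM change in PPS cells and the PM change in APS cells was called in 1088 genes, 6.08% of those tested, with 502 positive and 586 negative. This contrast uses the PPS libraries described above, so its values are not independent of them. MSGN1 was at 2.65 and 2.84 CPM in APS-24h and at 60.8 and 49.7 CPM in APS-PM, so that it rose in APS cells (log2 fold change 4.23) and was not called in PPS cells, with a difference of -4.07 ± 0.34 (adjusted p = 7.27e-06). CDX2 was at 16.5 and 31.8 CPM in APS-24h and at 166 and 194 CPM in APS-PM, the latter close to the 171 and 190 CPM of PPS-PM, with a difference of -3.92 ± 0.59 (adjusted p = 0.000368). TBX6 was at 19.1 and 22.4 CPM in APS-24h and at 163 and 171 CPM in APS-PM, and its difference of -0.45 ± 0.34 was not called (adjusted p = 0.542).

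Of the 37 tested HOX genes 17 had a called difference, and among those over 10 CPM HOXA5 and HOXB5 had the largest. HOXB5 was at 0.189 and 0.183 CPM in APS-24h and at 30.5 and 36.5 CPM in APS-PM, against 16.7 and 16.5 CPM and then 24.9 and 24.8 CPM in PPS cells, a difference of -6.79 ± 1.00 (adjusted p = 0.000425). Positive differences included FGF17, which was at 296 and 259 CPM in APS-24h and at 54.9 and 143 CPM in APS-PM, so that the difference was 6.20 ± 0.96 (adjusted p = 0.000387). CYP26A1 was at 116 and 52.1 CPM in APS-24h and at 0.143 and 0 CPM in APS-PM, while in PPS cells it was low throughout (adjusted p of the difference 0.00149). The count of called differences was 587 without PPS-24h replicate 2, 676 without APS-PM replicate 2, 663 without APS-24h replicate 1 and 682 without APS-24h replicate 2.

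**Figure D4:**
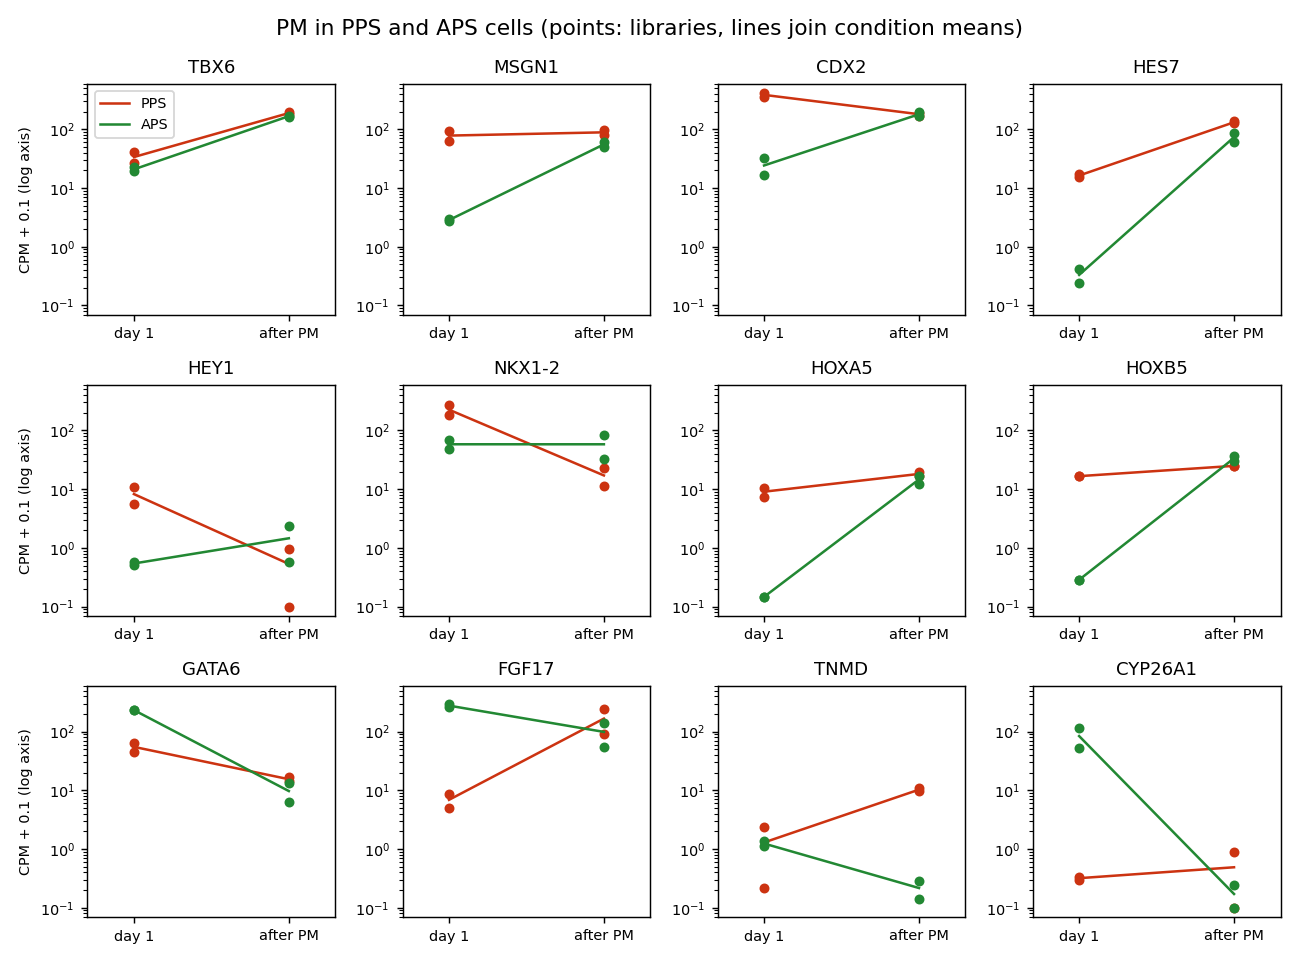
Level of 12 genes on day 1 and after PM in PPS and APS cells, as CPM + 0.1 on a log axis shared by all panels. Points are libraries and lines join condition means. MSGN1, CDX2, HES7, HOXA5 and HOXB5 start higher in PPS cells and lie closer to the APS level after PM. Both PPS-PM libraries still lie above both APS-PM libraries for MSGN1 and HES7, and below them for HOXB5. PPS-PM was not tested against APS-PM. FGF17 and CYP26A1 start higher in APS cells.

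The libraries at 48 h also allow PPS-PM to be compared with PPS cells given other media for the same time, and these comparisons share the PPS-PM libraries with the first. PPS-PM differed from PPS-LM in 4073 genes, 22.8% of those tested (1917 higher in PPS-PM and 2156 lower), and from PPS-DE(b) in 3227 genes, 18.0% (1480 higher and 1747 lower). These counts were 2693 and 1770 without PPS-PM replicate 2, and the second was 1973 and 1830 without PPS-DE(b) replicate 1 and 2. The list counts that follow stand beside these numbers of higher and lower genes in the full fit, out of 17895 tested. Of the 16 presomitic and posterior factors, 10 were higher in PPS-PM than in PPS-LM and 0 lower, and 10 were higher and 4 lower than in PPS-DE(b). TBX6 was at 2.95 and 2.90 CPM in PPS-LM and at 49.3 and 52.9 CPM in PPS-DE(b), against 183 and 195 CPM in PPS-PM (log2 fold changes of 5.94 ± 0.30 and 1.82 ± 0.24). TBXT, lower in PPS-PM than on day 1, was at 0.525 and 1.20 CPM in PPS-LM and at 108 and 85.6 CPM in PPS-DE(b), below the 402 and 557 CPM of PPS-PM (9.04 ± 0.60 and 2.24 ± 0.41).

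Of the 17 BMP targets, 15 were lower in PPS-PM than in PPS-LM, which had BMP4 in the medium, and 1 was higher. Against PPS-DE(b), which had the same BMP receptor inhibitor as PM, 7 were lower and 2 higher. Of all 17895 genes tested, 1747 were lower and 1480 higher than in PPS-DE(b). BAMBI was at 864 and 723 CPM in PPS-LM and at 117 and 66.4 CPM in PPS-DE(b), against 35.9 and 46.8 CPM in PPS-PM (-4.33 ± 0.31 and -1.22 ± 0.27). ID1 was higher in PPS-PM than in PPS-DE(b), where it was at 16.9 and 10.6 CPM (1.54 ± 0.48, adjusted p = 0.0287). Of the 14 Nodal and activin targets, 13 were lower in PPS-PM than in PPS-DE(b), which had activin, and 0 higher. EOMES was at 368 and 413 CPM in PPS-DE(b) against 0.389 and 0.571 CPM in PPS-PM (-9.73 ± 0.89, adjusted p = 6.78e-08).

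The RNA of CDH1, which encodes E-CAD, was lower after PM than after LM, and the protein was not measured in these libraries. CDH1 was at 616 and 763 CPM in PPS-LM (log2 fold change of PPS-PM over PPS-LM -2.80 ± 0.27, adjusted p = 8.61e-08) and at 105 and 94.8 CPM in PPS-DE(b), which differed from PPS-PM by 0.00 ± 0.26 (adjusted p = 1). Of the 25 tight junction and epithelial genes, 13 were lower in PPS-PM than in PPS-LM and 0 higher, and 3 were lower and 1 higher than in PPS-DE(b). Of all 17895 genes tested, 2156 were lower and 1917 higher than in PPS-LM, and 1747 lower and 1480 higher than in PPS-DE(b). FOXC1 was at 0.525 and 0.328 CPM in PPS-LM and at 78.5 and 72.5 CPM in PPS-DE(b), the latter not called different from PPS-PM (0.56 ± 0.31, adjusted p = 0.23). HOXB1 was low in both (1.31 and 2.13 CPM in PPS-LM, 2.17 and 1.82 CPM in PPS-DE(b)) and at 164 and 247 CPM in PPS-PM (6.82 ± 0.58 and 6.61 ± 0.57).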

How the data were processed

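Bulk poly(A) RNA of ESI017 cells was sequenced as paired reads of 75 bases. The authors quantified the reads with Salmon 1.10.2 against GRCh38, per the submitters' processing notes, and deposited estimated counts per gene that need not be whole, with each replicate in a table of its own. Here the estimated counts were rounded and all 34 libraries were fitted together in edgeR 4.0.16 (R 4.3.3) with TMM factors, filterByExpr, which kept 17895 of 37951 genes, and a quasi-likelihood test with 1 coefficient per condition. A gene was called at a Benjamini-Hochberg adjusted p under 0.05. Library totals lay between 15522780 and 23439799. CPM were taken per library total, without the TMM factor. The comparison, its members and the 26 gene lists were chosen with earlier results of these data known. Genes were named by size (the 10 largest rises and falls among called genes whose mean reached 10 CPM in either condition, with no overlap), by list membership, or from a fixed set of markers. Of 469 list symbols, 17 have several identifiers and were left out of list counts. Their values come from a fit on identifiers summed by symbol, added after the data were seen. Alternatives were RLE factors, no filter, a replicate block, only the libraries compared, DESeq2, a tested fold of at least 2 and leaving out each library. The script was tested on simulated counts. Promoter windows came from RefSeq.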

Additional observations from a re-analysis of the deposited data

Results flagged for a closer look

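The change in PM medium differed between PPS and APS cells in 1088 genes by the interaction term of the edgeR fit (Benjamini-Hochberg adjusted p under 0.05). The values below are the log2 change in PPS cells minus that in APS cells, from 2 libraries per condition.

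Of the 16 presomitic and posterior factors 4 had a called difference, each of them negative, against 6.08% of all genes tested. They were -4.07 for MSGN1, -5.18 for HES7 (adjusted p = 4.39e-05), -3.92 for CDX2 and -3.65 for NKX1-2 (adjusted p = 0.00657). HES7 was at 0.142 and 0.320 CPM in APS-24h and at 85.7 and 61.9 CPM in APS-PM. NKX1-2 was at 47.9 and 68.4 CPM in APS-24h and at 83.8 and 32.4 CPM in APS-PM, where PPS cells went from 184 and 268 CPM to 22.6 and 11.4 CPM.

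Notch genes with a called difference were LFNG (-2.32), HEYL (-2.83), HEY1 (-5.70), HEY2 (-2.28), NRARP (-2.02), NOTCH3 (-1.86) and JAG1 (-1.30). JAG1 was at 28.5 and 29.9 CPM in APS-24h and at 82.6 and 65.5 CPM in APS-PM, against 116 to 132 CPM in the PPS libraries. NRARP had the highest adjusted p of these, 0.0471.

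Among HOX genes over 10 CPM the largest differences were -7.02 for HOXA5 and -6.79 for HOXB5. HOXA5 was at 0.0473 and 0.0458 CPM in APS-24h, so its fitted value depends on a prior count. PAX2 (-3.45) and HAND1 (-2.78, adjusted p = 0.0463) were lower on this scale and GATA6 was higher (2.83). GATA6 was at 230 and 236 CPM in APS-24h and at 13 and 6.27 CPM in APS-PM.

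The positive differences were 11.09 for CYP26A1, 6.20 for FGF17, 6.38 for TNMD and 5.78 for OTUD7A. CYP26A1 was at 0.143 and 0 CPM in APS-PM, so its fitted value depends on a prior count. TNMD, at 2.27 and 0.120 CPM in PPS-24h, was at 10.9 and 9.48 CPM in PPS-PM. In APS-PM it was at 0.191 and 0.0427 CPM, so its value also rests on a few counts. OTUD7A was at 149 and 327 CPM in PPS-PM and at 5.45 and 38.1 CPM in APS-PM, so its replicates lay far apart. MYH7B had a difference of -6.79 and stood at 3.78 and 26.1 CPM in APS-PM.

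RGL2 (11.09), CDK7 (-12.14) and TCF19 (-12.82) are each listed under several identifiers, and these values belong to 1 identifier each. CDK7 under that identifier was at 45.4 and 0.849 CPM in the PPS-24h replicates. With identifiers summed, TCF19 had a log2 fold change of 0.02 (adjusted p = 0.968) between PPS-PM and PPS-24h.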

How the results depend on the processing

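The number of genes called between PPS-PM and PPS-24h was 1448 when only the compared libraries were fitted and 923 with a tested fold of at least 2, against 3623, and 2194 to 3135 with 1 library left out. The number of called differences from APS cells was 1673 with no filter, 276 with the compared libraries alone and 190 with a fold of at least 2, against 1088, and 587 to 1104 with 1 library left out. Against PPS-LM it was 1465 with a fold of at least 2 and 2693 to 3609 with 1 library left out, and against PPS-DE(b) 886 and 1770 to 2926. RLE factors, DESeq2 and summed identifiers moved the first count by less than 1.5-fold (3646, 4072 and 3761).

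Of 219 called genes on the lists or named by size, 0 reversed under any alternative, and 2 lost their call with RLE, 7 with no filter, 3 with DESeq2 and 34 to 61 with 1 library left out. With the compared libraries alone 62 of 216 did. LOX, not called (log2 fold change 0.03), had -6.34 without PPS-PM replicate 1. The cause was not tested.

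The replicates share numbers across conditions, and the deviations of PPS-24h and PPS-PM correlated at 0.210. Over the 136 pairs of conditions the lowest, median and highest correlations were -0.172, 0.142 and 0.531, and 88 were over 0.1. The labels do not say what a number marks, so the numbers were not taken as pairs. A shared source behind a number was not tested. With a replicate block 4344 genes were called between PPS-PM and PPS-24h, 1526 in the difference from APS cells, 4829 against PPS-LM and 4158 against PPS-DE(b). CDX2 (adjusted p = 0.019), HOXB9 (0.0188), EVX1 (0.0364) and FOXH1 (0.0482) were then called, with the direction they had without the block.

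With 2 libraries per condition, p-values rest on a spread shared across all conditions, and genes with a few counts have wide errors.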
